A study of Homo sapiens with 6 samples.

Results

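The transcripts of 41 genes of homologous recombination and the Fanconi anemia pathway were followed in the HER2+ breast cancer line MDA-MB-453 after knockdown of the phosphatase gene *DUSP6*. The genes were taken by symbol from a list that was chosen with earlier results of these data known. All 41 were found among the 22807 genes of the table. Homologous recombination repairs DNA double-strand breaks by copying the sister chromatid. Nucleases cut back the break ends, BRCA1, PALB2 and BRCA2 prepare the exposed strand for pairing with the sister, and helicases and nucleases take the joined molecules apart again. The Fanconi anemia pathway repairs crosslinks between the DNA strands. Its core complex attaches ubiquitin to FANCI and FANCD2, and the repair then runs into homologous recombination, so the same proteins serve both routes. Many of these genes are transcribed mostly in S and G2 phase, when a sister chromatid is present, and inherited loss of several of them raises the risk of breast cancer.

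The 6 libraries came from cells that the labels give as WT, grown in RPMI with serum and transfected with lipofectamine RNAiMAX and siRNA. In 3 libraries the siRNA was scrambled and in 3 it targeted *DUSP6*. The legend of the study gives different siRNAs within each group, but not which one each library received, so a difference between siRNAs cannot be told apart from one between cultures. The labels do not say that the libraries came from separate cultures, and p-values then measure only the spread between these samples. The time from transfection to harvest was not given in the sources used here.

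The values are reads relative to a scaled library size, on a linear scale, and the recovered depth ran from 45546981 to 85729785 reads per library. *DUSP6* itself had values of 209, 110 and 114 with scrambled siRNA and 39.4, 24.5 and 35.2 with *DUSP6* siRNA, so it fell by 2.05 on the log2 scale (limma adjusted p = 3.09e-04). All 7 markers of the luminal or apocrine line were present, *ERBB2* with a mean of 984 in the scrambled siRNA libraries. Of the markers of other cell types, *PTPRC*, *PECAM1*, *KRT5* and *KRT14* had mean values under 1, whereas the collagen gene *COL1A1* had a mean of 92.2 with scrambled siRNA and 173 with *DUSP6* siRNA. What part *COL1A1*-expressing cells have in the values below was not tested. In bulk RNA, fewer cells that express a gene and less of its RNA per cell cannot be told apart.

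With *DUSP6* siRNA, 22 of the 41 genes fell and 2 rose. The call was a limma adjusted p under 0.05 on log2(value + 1), with the adjustment over all 12862 genes whose mean value reached 1, and all 41 genes passed that filter. Among all genes tested, 24.7% fell and 19.7% rose, against 53.7% and 4.88% of the 41. Since the 41 were chosen with earlier results of these data known, this contrast is a description and not a test. Of 43 further genes of the same pathways that could be tested, 34.9% fell and 16.3% rose. The median log2 fold change of the 41 was -0.37, with a range from -1.32 to 0.46, where that of all genes tested was -0.01. The mean was lower with *DUSP6* siRNA for 36 of the 41. In 24 genes every *DUSP6* siRNA library lay below every scrambled siRNA library, and in 5 every one lay above, where these shares over all genes tested were 31.1% and 26.7%. A single gene tested by exact permutation of 3 libraries against 3 cannot go below p = 0.1.

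**Figure D1:**
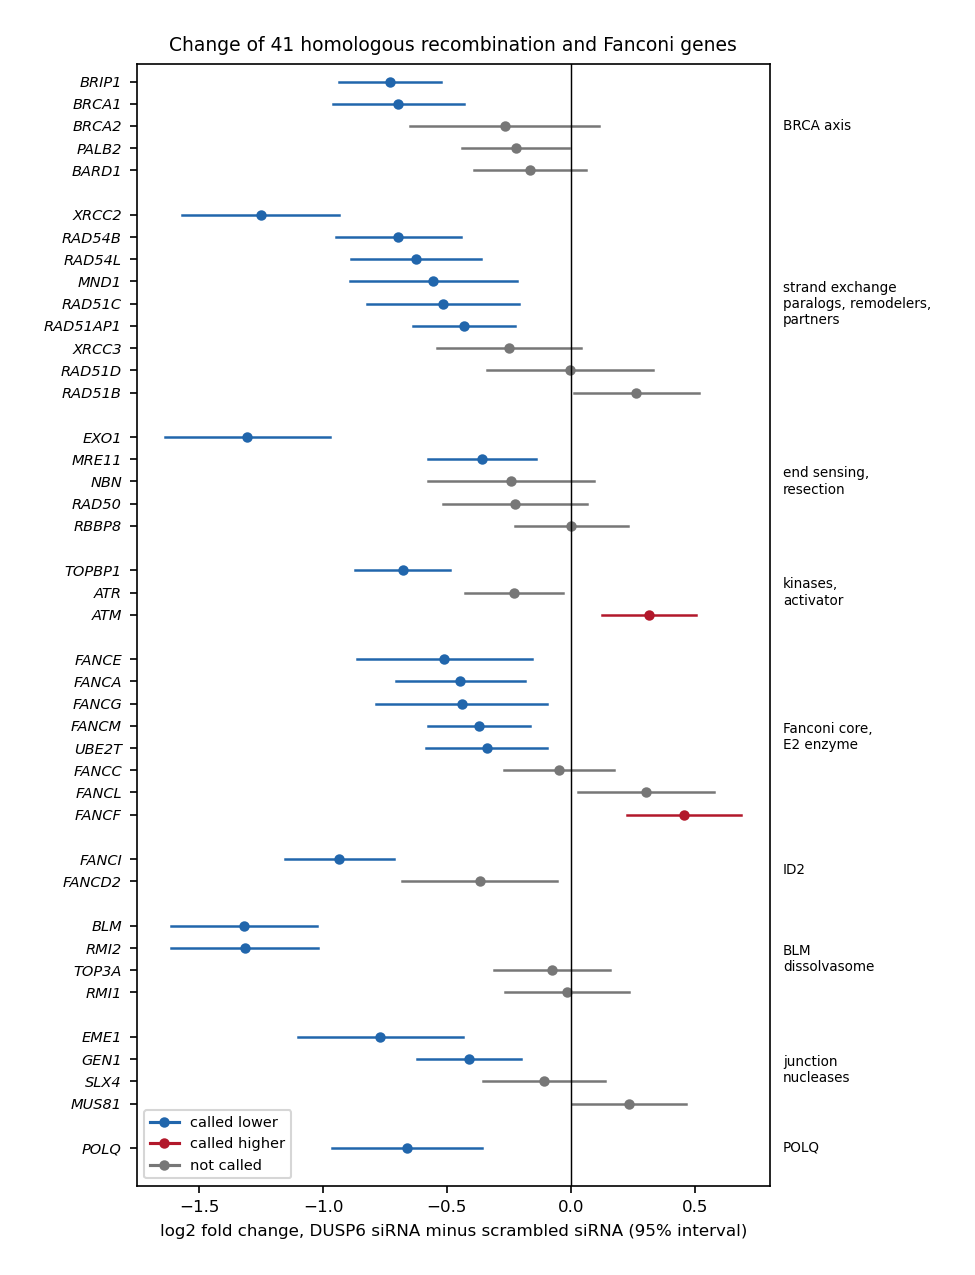
The horizontal axis gives the limma log2 fold change of each of the 41 genes, *DUSP6* siRNA minus scrambled siRNA, with its 95% interval as a line. Genes stand in rows by role, blue for the 22 that fell, red for the 2 that rose (*ATM* and *FANCF*) and grey for the 17 that passed no threshold, and 4 points lie below -1 (*BLM*, *RMI2*, *EXO1* and *XRCC2*).

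The falls were unequal. *BLM*, *RMI2*, *EXO1* and *XRCC2* had log2 fold changes under -1 and kept between 36.7% and 39.7% of their mean value, and 11 more genes lay between -1 and -0.5. They do not belong to one complex: they encode a helicase, its accessory protein, a resection nuclease and a strand exchange paralog. Leaving out any 1 library, or changing the filter, the scaling, the pseudocount or the test, kept the call of 13 of the 22 genes that fell in all 14 alternatives. *XRCC2* kept it in the 13 alternatives that tested it, since it lay under a mean of 10. *BRCA2*, *PALB2*, *BARD1* and *FANCD2*, among the best known members of these pathways, were not among the genes that fell.

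Since the falls were unequal, the promoters of the genes were read for 4 motifs, those of E2F and of the cell cycle element CHR, the CCAAT box that NF-Y binds, and that of NRF1. RefSeq promoters, from 250 bases before to 50 after a start site on GRCh38.p14, matched 37 of the 41 genes, all but *RAD54B*, *NBN*, *FANCI* and *RMI2*. The E2F motif (TTTCCCGC, TTTGGCGC, TTTCGCGC or TTTGCCGC on either strand) stood in the promoters of 9 of the 37, or 24.3%, and of 6.84% of the 10127 tested genes with a promoter. Of these 9 genes, 6 fell (*XRCC2*, *MND1*, *EXO1*, *TOPBP1*, *FANCA* and *GEN1*), and *FANCC*, *FANCD2* and *RMI1* did not pass the threshold. By call, 6 of the 19 genes that fell and had a promoter held it (31.6%) and 3 of the other 18 (16.7%). Over all tested genes with a promoter, it stood in 8.61% of those that fell and 6.26% of the others. The CHR motif (TTTGAA or TTCGAA) stood in 16.2% of the 37 and 15.3% of all, the CCAAT box (CCAAT) in 43.2% and 43.6%, and a consensus of NRF1 in 5.41% and 2.81%. No matches of different motifs overlapped in the promoters of the 41 genes. These shares are counts of letters and were not tested.

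The windows below, of 120 bases before and 30 after a start site, are shown for 4 genes that fell and hold an E2F match, for 2 that hold one and did not pass the threshold, and for *BLM*, which had the lowest fold change and no E2F match. Capitals mark the match, on the strand of the gene as printed, 5′ to 3′, and positions count from the start site, of which some genes have more than the one shown.
*EXO1*, fell, chr1:241848084-241848233, plus strand, match from base 5 after the start: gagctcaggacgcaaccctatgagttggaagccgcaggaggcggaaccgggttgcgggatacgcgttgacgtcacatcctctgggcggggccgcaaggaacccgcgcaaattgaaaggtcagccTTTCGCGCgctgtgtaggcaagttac
*XRCC2*, fell, chr7:152676112-152676261, minus strand, match from base 22 after the start: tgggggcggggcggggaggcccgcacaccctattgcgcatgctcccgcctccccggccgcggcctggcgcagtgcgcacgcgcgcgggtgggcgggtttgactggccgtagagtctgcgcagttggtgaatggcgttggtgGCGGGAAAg
*TOPBP1*, fell, chr3:133661912-133662061, minus strand, match from base -7: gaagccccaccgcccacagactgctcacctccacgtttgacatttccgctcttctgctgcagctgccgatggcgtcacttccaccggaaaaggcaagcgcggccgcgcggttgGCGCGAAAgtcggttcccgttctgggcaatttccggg
*MND1*, fell, chr4:153344568-153344717, plus strand, match from base -34: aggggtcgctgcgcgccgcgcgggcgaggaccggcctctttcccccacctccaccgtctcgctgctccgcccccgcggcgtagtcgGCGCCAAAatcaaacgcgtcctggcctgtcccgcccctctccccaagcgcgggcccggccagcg
*FANCC*, not past the threshold, chr9:95317680-95317829, minus strand, match from base -46: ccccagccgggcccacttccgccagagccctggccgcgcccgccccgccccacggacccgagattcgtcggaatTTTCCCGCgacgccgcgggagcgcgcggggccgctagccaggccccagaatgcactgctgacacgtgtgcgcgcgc
*RMI1*, not past the threshold, chr9:83980685-83980834, plus strand, match from base -32: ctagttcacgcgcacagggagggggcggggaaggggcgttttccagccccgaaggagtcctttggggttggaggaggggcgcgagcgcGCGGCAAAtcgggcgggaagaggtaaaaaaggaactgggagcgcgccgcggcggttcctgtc
*BLM*, fell, chr15:90717226-90717375, plus strand, 2 CCAAT matches from bases -46 and -21: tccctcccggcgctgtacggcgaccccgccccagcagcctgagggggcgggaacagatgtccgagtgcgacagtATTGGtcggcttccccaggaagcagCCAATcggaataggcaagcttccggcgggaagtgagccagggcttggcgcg
An E2F match thus stood both in promoters of genes with fold changes under -1 and in those of genes whose groups overlapped.

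In the BLM dissolvasome, which unwinds crossed DNA molecules without exchanging their arms, 2 of the 4 genes fell. *BLM* (Entrez gene 641) encodes the helicase, and its values were 25.9, 22.2 and 23.8 with scrambled siRNA and 10.5, 7.57 and 9.15 with *DUSP6* siRNA. The groups stood well apart, and the mean went from 24.0 ± 1.84 to 9.06 ± 1.45 (SD, n = 3), and the log2 fold change was -1.32 ± 0.13 (SE; limma adjusted p = 1.04e-04). *RMI2* encodes an accessory protein that holds the complex on DNA. It had values of 51.8, 39.9 and 48.1 and then 20.6, 16.1 and 17.5, and its log2 fold change was also -1.32 ± 0.13 (SE; limma adjusted p = 1.07e-04). The topoisomerase gene *TOP3A* (log2 fold change -0.07, 95% interval -0.31 to 0.16) and *RMI1* (-0.02, 95% interval -0.27 to 0.23), which encodes the other accessory protein, had overlapping groups. Both intervals lie above those of *BLM* (-1.61 to -1.02) and *RMI2* (-1.61 to -1.02).

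Among the genes of end sensing and resection, *EXO1* had the largest change. It encodes the exonuclease of long-range resection, and its values were 138, 100.4 and 99.7 with scrambled siRNA and 50.6, 39.3 and 44.3 with *DUSP6* siRNA. No *DUSP6* siRNA library reached the level of a scrambled siRNA library, and the log2 fold change was -1.31 ± 0.15 (SE; limma adjusted p = 1.95e-04). The complex that senses the ends moved much less. Its nuclease gene *MRE11* fell by 0.36 on the log2 scale (limma adjusted p = 0.0148), a call that was lost without any 1 of the *DUSP6* siRNA libraries. *RAD50* and *NBN*, which encode its other subunits, had log2 fold changes of -0.22 and -0.24 with 95% intervals of -0.51 to 0.06 and -0.57 to 0.09. Scrambled siRNA replicate 1 stood above the other libraries in both, at 169 and 153. The groups of *RAD50* overlapped, whereas *NBN* was lower in every *DUSP6* siRNA library than in every scrambled siRNA library. *RBBP8*, which encodes CtIP, the cofactor that starts resection, had a log2 fold change of 0.00 (95% interval -0.23 to 0.23).

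In the BRCA1-PALB2-BRCA2 axis 2 of 5 genes fell. *BRCA1* encodes the ubiquitin ligase that promotes resection and recruits PALB2, and it had values of 39.0, 31.0 and 35.4 with scrambled siRNA and 23.4, 19.6 and 20.8 with *DUSP6* siRNA. Its groups did not overlap, and its log2 fold change was -0.70 ± 0.12 (SE; limma adjusted p = 0.00164). *BRIP1* encodes the helicase that binds BRCA1, also known as FANCJ. Its scrambled siRNA libraries were close together at 51.3, 51.3 and 49.5, its *DUSP6* siRNA libraries lay at 31.4, 28.1 and 31.1, and its log2 fold change was -0.73 ± 0.09 (SE; limma adjusted p = 3.36e-04). The genes of the proteins on either side of BRCA1 did not pass the threshold, although *PALB2* was lower in every *DUSP6* siRNA library than in every scrambled siRNA library. *BARD1*, its binding partner in the ligase, had a log2 fold change of -0.16 (95% interval -0.39 to 0.06), *PALB2*, the bridge to BRCA2, one of -0.22 (95% interval -0.44 to -0.01), and *BRCA2*, which acts next in the route, one of -0.27 (95% interval -0.65 to 0.11). *BRCA2* varied most within the scrambled siRNA group, with values of 54.0, 48.2 and 33.0, and the lowest of them lay below all *DUSP6* siRNA values, which were 38.9, 33.2 and 37.8.

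Of the 9 genes for strand exchange paralogs, remodelers and partners, 6 fell. *XRCC2*, one of these paralogs, had values of 14.2, 9.83 and 11.6 with scrambled siRNA and 4.67, 4.04 and 4.36 with *DUSP6* siRNA. It kept 36.7% of its mean value, the lowest share among the 41 genes, with a log2 fold change of -1.25 ± 0.14 (SE; limma adjusted p = 1.92e-04). The added 1 shrinks the change of a gene at this level, which is why its fold change on this scale lies above that of *BLM*. *RAD54B* and *RAD54L* encode DNA translocases that act during strand exchange. *RAD54B* had values of 36.6, 28.7 and 32.6 and then 20.5, 19.3 and 19.2, with a log2 fold change of -0.70 ± 0.11 (SE; limma adjusted p = 0.00126). *RAD54L* had values of 35.6, 35.4 and 38.3 and then 26.5, 20.1 and 23.7, with one of -0.62 ± 0.12 (SE; limma adjusted p = 0.00264). Exons of *LRRC41* on the opposite strand cover 26.2% of those of *RAD54L*. Reads were counted with the default settings of Rsubread, which do not use the strand. A read over a stretch that exons of both genes share then cannot be given to 1 of them. The values of genes with such antisense neighbors are therefore uncertain.

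*MND1* encodes a strand exchange factor that is known best from meiosis. Its values were 17.7, 13.3 and 12.0 with scrambled siRNA and 10.3, 8.55 and 9.22 with *DUSP6* siRNA, for a log2 difference of -0.55 (limma adjusted p = 0.0154). *RAD51C*, a paralog present in both paralog complexes, had values of 16.4, 12.3 and 12.0 and then 9.34, 8.43 and 9.55, for a log2 difference of -0.51 (limma adjusted p = 0.0140). In both genes the gap between the groups was smaller than the distance of scrambled siRNA replicate 1 from the other scrambled siRNA libraries. Without *DUSP6* siRNA replicate 2 neither passed the threshold, and *MND1* did not without replicate 3 either. *RAD51AP1*, whose product stimulates strand exchange, fell by 0.43 on the log2 scale (limma adjusted p = 0.00505). The other paralogs did not pass the threshold: *XRCC3* had a log2 fold change of -0.25 (95% interval -0.54 to 0.04), *RAD51D* one of -0.00 (95% interval -0.34 to 0.33) and *RAD51B* one of 0.26 (95% interval 0.01 to 0.52). Of the genes for the paralog complex of RAD51B, RAD51C, RAD51D and XRCC2, 2 thus fell, and *RAD51B* was higher in every *DUSP6* siRNA library than in every scrambled siRNA library. Exons of *KLC1* cover 34.2% of those of *XRCC3*, whose value is uncertain for the same reason.

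*FANCI* and *FANCD2* encode the pair of proteins that the Fanconi pathway marks with ubiquitin. *FANCI* had values of 122, 131 and 145 with scrambled siRNA and 74.0, 65.5 and 67.3 with *DUSP6* siRNA. It was left with 51.9% of its mean value, a log2 fold change of -0.93 ± 0.10 (SE; limma adjusted p = 1.36e-04). *FANCD2* had values of 69.3, 51.7 and 74.1 and then 53.2, 45.7 and 50.2, so that scrambled siRNA replicate 2 lay within the *DUSP6* siRNA group. Its log2 fold change was -0.37 (95% interval -0.68 to -0.06, limma adjusted p = 0.0563), and without scrambled siRNA replicate 2 it passed the threshold. Exons of *POLG* cover 9.68% of those of *FANCI* and those of *FANCD2OS* 5.12% of those of *FANCD2*, both on the opposite strand, and *FANCD2*, like *BRCA1*, *MRE11* and *RBBP8*, has pseudogene copies that can share its reads.

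Of the 8 genes of the Fanconi core complex and its E2 enzyme, 5 fell and 1 rose, with log2 fold changes from -0.51 to 0.46. *FANCE*, whose product links the core complex to FANCD2, had the largest fall. Its values were 19.2, 12.2 and 17.0 with scrambled siRNA and 11.2, 10.3 and 11.1 with *DUSP6* siRNA, for a log2 difference of -0.51 (limma adjusted p = 0.0263). *FANCA* (-0.45) and *FANCG* (-0.44), whose products bind each other, *FANCM* (-0.37), the translocase that anchors the complex on DNA, and *UBE2T* (-0.34), the ubiquitin-conjugating enzyme, also fell, with limma adjusted p between 0.0103 and 0.0420. The groups of *FANCG* overlapped all the same. Each of *FANCE*, *FANCG* and *UBE2T* lost its call without scrambled siRNA replicate 1 or 3 or without any 1 *DUSP6* siRNA library. *FANCE* and *FANCG* also lost it without a filter, *FANCG* and *UBE2T* under quantile normalization, *FANCA* without *DUSP6* siRNA replicate 2 and *FANCM* without replicate 1 or 3. Exons of *ZNF276* cover 27.4% of those of *FANCA* on the opposite strand.

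*FANCF*, which encodes the adaptor of the core complex, went the other way. Its values were 18.4, 20.3 and 17.4 with scrambled siRNA and 25.7, 27.4 and 25.0 with *DUSP6* siRNA, and its mean reached 139% of the scrambled siRNA mean. Every *DUSP6* siRNA library lay above every scrambled siRNA library, with a log2 fold change of 0.46 ± 0.10 (SE; limma adjusted p = 0.00668). *FANCL*, the ubiquitin ligase of the complex, had a log2 fold change of 0.30 (95% interval 0.03 to 0.58) and *FANCC* one of -0.05 (95% interval -0.27 to 0.17), and neither passed the threshold. All *DUSP6* siRNA values of *FANCL* lay above all its scrambled siRNA values. Exons of *GAS2* cover 9.57% of those of *FANCF* and exons of *VRK2* 27.3% of those of *FANCL*.

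Of the checkpoint kinases and the activator of ATR, 1 gene fell, 1 rose and 1 did not pass the threshold. *TOPBP1*, whose product activates ATR, had values of 169, 150 and 154 with scrambled siRNA and 100.1, 95.1 and 99.1 with *DUSP6* siRNA, giving a log2 fold change of -0.68 ± 0.09 (SE; limma adjusted p = 3.57e-04). *ATR*, the kinase that answers single-stranded DNA, had a log2 fold change of -0.23 (95% interval -0.43 to -0.03, limma adjusted p = 0.0591). All *DUSP6* siRNA values of *ATR* lay below all its scrambled siRNA values. *ATM*, the kinase that answers double-strand breaks, rose. Its values were 63.6, 65.8 and 70.0 and then 82.7, 81.2 and 85.0, without overlap, and its log2 fold change was 0.32 ± 0.08 (SE; limma adjusted p = 0.0142). Without *DUSP6* siRNA replicate 1 or 3, *ATM* no longer passed the threshold. *ATM* and *FANCF* are given in full because they were the only ones of the 41 genes that rose, a choice made after their values were seen.

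Of the junction nucleases, which cut crossed DNA molecules apart, 2 of 4 genes fell. *EME1* encodes the partner that the MUS81 nuclease needs, and its values were 32.6, 26.8 and 22.1 with scrambled siRNA and 15.9, 13.7 and 16.5 with *DUSP6* siRNA. The groups did not overlap although the scrambled siRNA values were spread, and the log2 fold change was -0.77 ± 0.15 (SE; limma adjusted p = 0.00309). *GEN1*, a resolvase that acts late in mitosis, fell by 0.41 on the log2 scale (limma adjusted p = 0.00689). *MUS81* had a log2 fold change of 0.24 (95% interval 0.01 to 0.47) with every *DUSP6* siRNA library above every scrambled siRNA library, and *SLX4*, the scaffold of the nucleases, one of -0.11 (95% interval -0.35 to 0.14), and neither passed the threshold. Exons of *LRRC59* cover 23.2% of those of *EME1* and exons of *CFL1* 7.02% of those of *MUS81* on the opposite strand. *POLQ* encodes the polymerase theta of an error-prone route that joins ends which homologous recombination leaves. It had values of 82.9, 73.1 and 57.6 and then 47.8, 41.9 and 43.0, a log2 fold change of -0.66 ± 0.13 (SE; limma adjusted p = 0.00423).

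**Figure D2:**
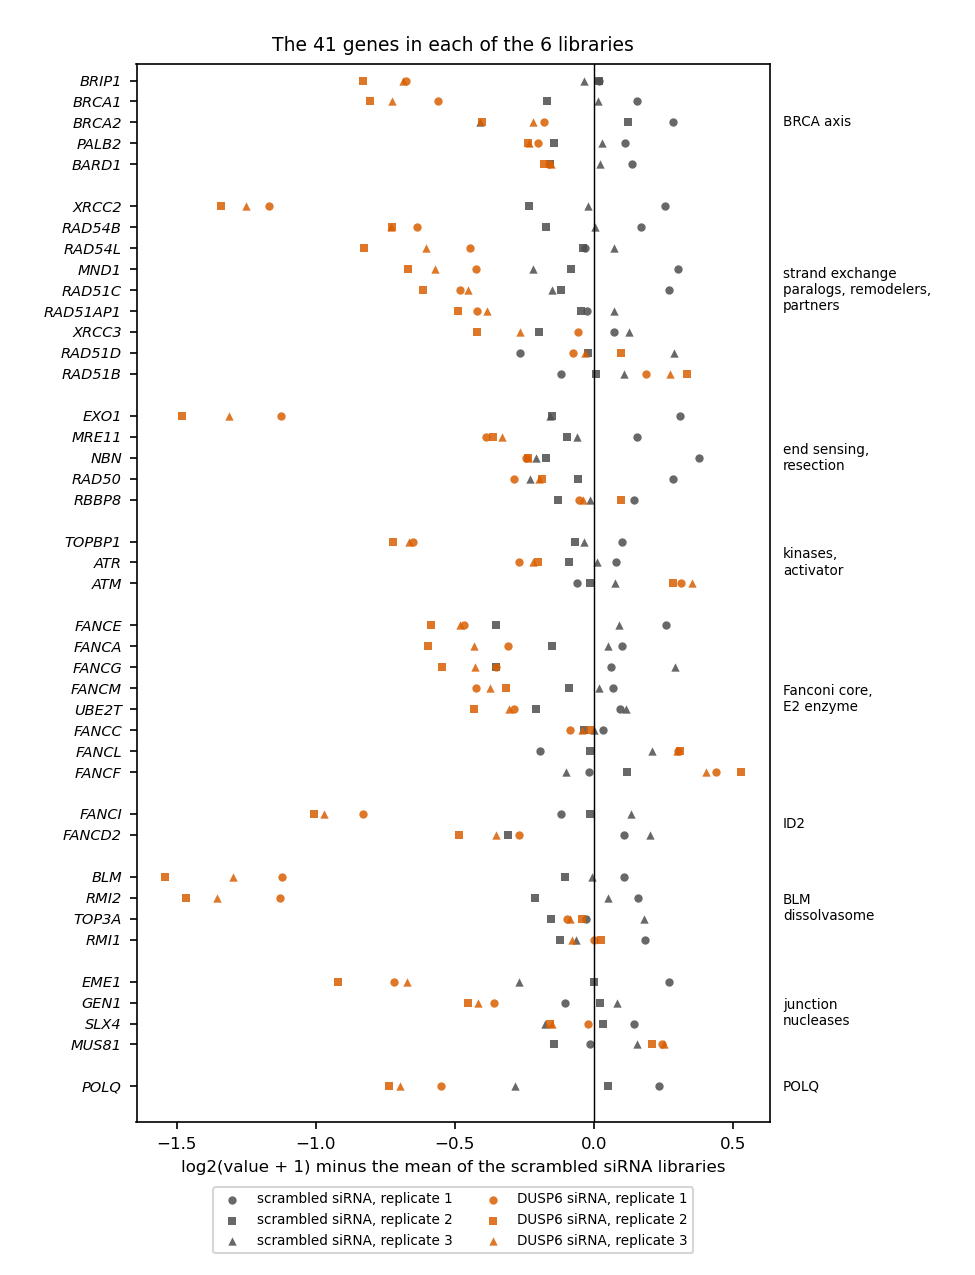
The horizontal axis gives log2(value + 1) of each gene in each of the 6 libraries, minus the mean of the 3 scrambled siRNA libraries. The groups stand apart for *BLM*, *RMI2*, *EXO1*, *XRCC2* and *FANCI*, the *DUSP6* siRNA points of *ATM* and *FANCF* lie to the right, and the groups of 12 of the 41 genes overlap.

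Proteins of the same complex thus had transcripts that moved unequally, and the ratio of 2 such genes within a library does not depend on how that library was scaled, apart from the added 1. The ratios of 13 pairs of partners were compared. The pairs were listed after the fold changes had been seen, so their directions, the count of pairs and the p-values below are a description and not a test. In 9 pairs the ratio was lower in every *DUSP6* siRNA library than in every scrambled siRNA library, and the exact two-sided permutation p was 0.1, the smallest that is possible (0.144 after adjustment over the 13). The largest shift was that of *RMI2* to *RMI1*, from a log2 ratio of 0.92 ± 0.10 to -0.38 ± 0.18 (SD, n = 3). The order of their values turned, but not that of their levels per kilobase of transcript. Per kilobase, the ratio of *RMI2* to *RMI1* was 4.48 with scrambled siRNA and 1.77 with *DUSP6* siRNA. Similar shifts were found for *XRCC2* to *RAD51D* (a log2 ratio lower by 1.25), *BLM* to *TOP3A* (by 1.24) and *EME1* to *MUS81* (by 1.01). The ratio of *RAD51C* to *RAD51B* was lower by 0.78, of *UBE2T* to *FANCL* by 0.64, of *FANCI* to *FANCD2* by 0.57, of *BRCA1* to *BARD1* by 0.53 and of *TOPBP1* to *ATR* by 0.45.

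The ratios of the other 4 pairs overlapped between the groups. That of *NBN* to *RAD50* was -0.24 ± 0.11 with scrambled siRNA and -0.25 ± 0.05 with *DUSP6* siRNA (SD, n = 3; exact permutation p = 1). *BRCA2* to *PALB2* differed by -0.04 (exact permutation p = 1), *MRE11* to *RAD50* by -0.13 (exact permutation p = 0.2) and *RAD51C* to *XRCC3* by -0.27 (exact permutation p = 0.3). With 3 libraries a group these p-values do not show that the ratios were alike.

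**Figure D3:**
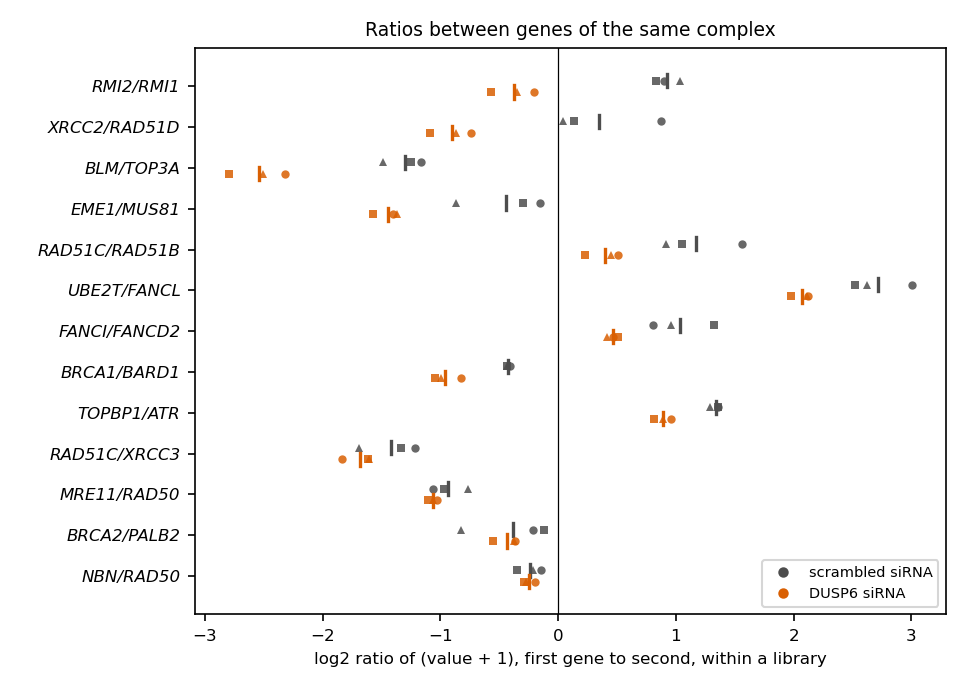
The horizontal axis gives the log2 ratio of (value + 1) of the first gene to the second within each library, grey for scrambled siRNA and orange for *DUSP6* siRNA, with a bar at the mean of 3 libraries. The orange points lie left of the grey ones without overlap in the upper 9 of 13 pairs, and the groups of the lower 4 overlap.

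Per kilobase of the MANE Select transcript, the level of the 41 genes in the scrambled siRNA libraries ran from 0.916 ± 0.197 for *RAD51D* to 108 ± 13.1 for *UBE2T* (normalized value per kb, SD, n = 3). *EXO1*, *RMI2* and *FANCG* came next below *UBE2T* at 32.7 ± 6.43, 32.7 ± 4.26 and 31.3 ± 6.87, and these 3 did not differ beyond their spread. *BRCA1* was at 4.96 ± 0.566, *BLM* at 4.57 ± 0.352 and *BRCA2* at 3.77 ± 0.907 per kb, again within their spread. With *DUSP6* siRNA, *EXO1* moved from rank 2 to rank 10 and *RMI2* from rank 3 to rank 11, whereas *MUS81* moved from rank 11 to rank 4 and *FANCF* from rank 30 to rank 19. *XRCC2*, which was at 2.49 ± 0.462 per kb with scrambled siRNA, came down to 0.913 ± 0.067, next to *RAD51D* at 0.902 ± 0.063. Reads from other isoforms are counted in these levels, so they are approximate.

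**Figure D4:**
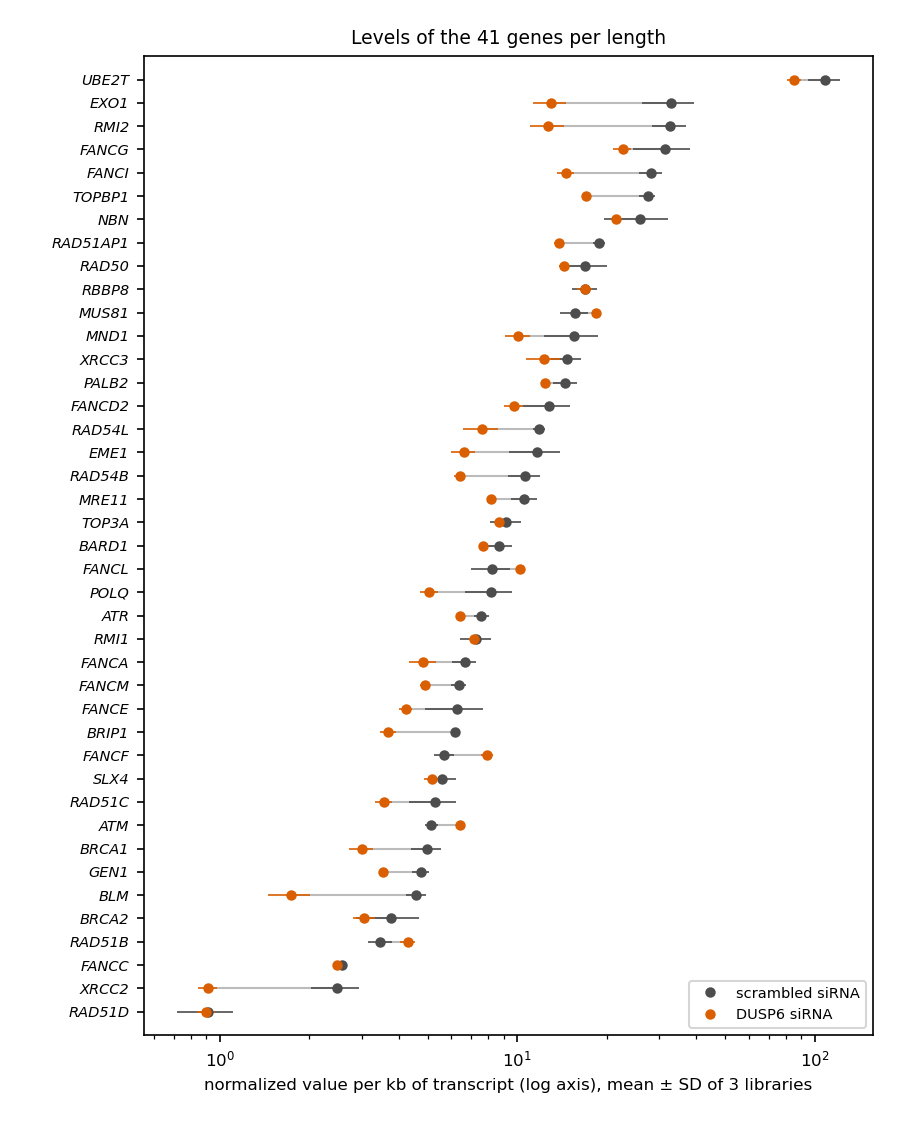
The horizontal axis, a log axis, gives the normalized value per kb of transcript as mean ± SD of 3 libraries, grey for scrambled siRNA and orange for *DUSP6* siRNA, with genes ordered by the scrambled siRNA level from *RAD51D* to *UBE2T*. Long grey connectors mark *EXO1*, *RMI2*, *BLM* and *XRCC2*, and the orange points of *MUS81*, *FANCL*, *FANCF*, *ATM* and *RAD51B* lie to the right of the grey ones.

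The libraries differed within groups as well. Among the scrambled siRNA libraries, replicate 1 was the highest for 25 of the 41 genes and replicate 2 the lowest for 24. Among the *DUSP6* siRNA libraries, replicate 1 was the highest for 22 and replicate 2 the lowest for 27. This order was not counted over all genes tested, so whether it is particular to the 41 is not known. The median over the 41 genes, as a log2 difference from the scrambled siRNA mean, was 0.11, -0.10 and 0.02 in the scrambled siRNA libraries, in the order of their numbers. In the *DUSP6* siRNA libraries it was -0.31, -0.43 and -0.35. The SD was larger with scrambled siRNA than with *DUSP6* siRNA for 35 of the 41 genes, with a median of 0.16 against 0.08 on the log2 scale. Among all genes tested, the SD was larger with scrambled siRNA for 10097 of 12862. Their medians were 0.17 and 0.08, close to those of the 41. Some genes crossed the threshold when 1 library was left out, and calls over all genes tested moved as well. In these fits 2309 to 3578 of all genes tested fell and 1535 to 3213 rose, against 3179 and 2540 with every library. Without scrambled siRNA replicate 2, *PALB2*, *ATR* and *FANCD2* were called lower, and without scrambled siRNA replicate 3, *BRCA2* and *RAD50* were called lower and *RAD51B*, *FANCL* and *MUS81* higher.

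Other genes of the same pathways were read from a second list. Of these 44 further genes of homologous recombination and the Fanconi pathway 43 could be tested (*DMC1*, the meiotic recombinase, was under the filter), and 15 fell (34.9%) and 7 rose (16.3%), with a median log2 fold change of -0.08. Over all genes tested these shares were 24.7% and 19.7%. *RPA2*, a subunit of the protein that coats single-stranded DNA, fell by 1.15 on the log2 scale, and *PSMC3IP*, which encodes the partner of MND1, by 0.97. *RECQL5*, a DNA helicase, rose by 0.88.

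The other repair routes had medians near that of all genes tested. Of all genes tested, 24.7% fell and 19.7% rose. Of 12 genes of non-homologous end joining 4 fell and 1 rose (median log2 fold change -0.11), with the largest fall in *NHEJ1* (-0.94). Of 7 mismatch repair genes 2 fell (median -0.06), with *MSH6* at -0.39. Of 26 tested genes of base and nucleotide excision repair 9 fell and 3 rose (median -0.01), among them *RAD23B* (-1.91) and *PARP1* (-0.65), which both fell. Of the proliferation markers 18 of 20 fell, their median log2 fold change was -0.59, and *RRM2* (-1.60) and *MKI67* (-1.17) fell most. Against the scrambled siRNA mean, their median was -0.50, -0.64 and -0.68 in the *DUSP6* siRNA libraries. The part that a changed share of cycling cells has in the falls of the 41 genes was not tested.

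**Figure D5:**
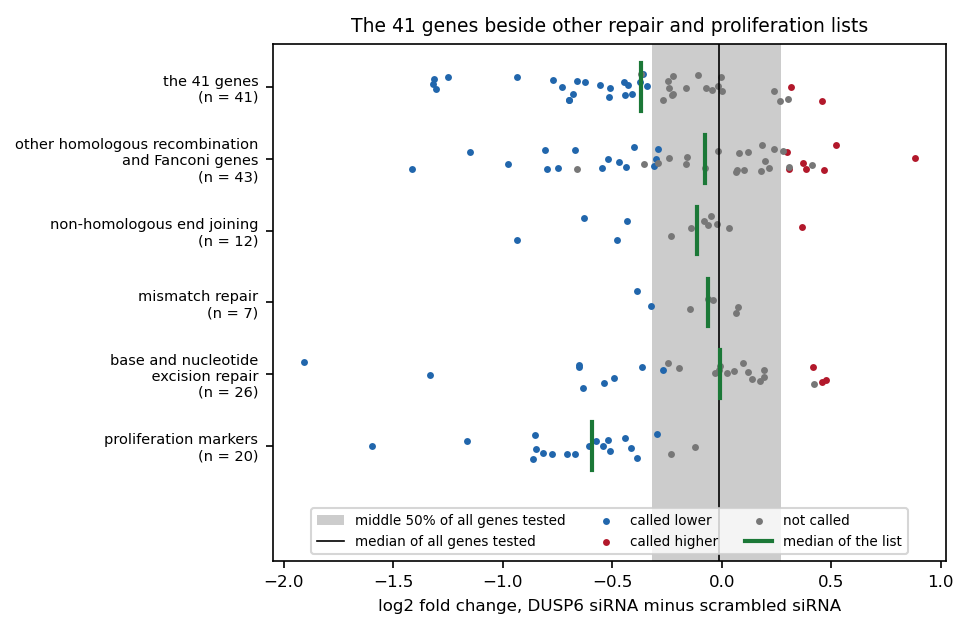
The horizontal axis gives the limma log2 fold change, 1 point per gene and 1 row per list, blue for genes that fell, red for genes that rose and grey for those past no threshold, with a green bar at the median of the list. The grey band holds the middle 50% of all genes tested, from -0.32 to 0.27, and the medians of the 41 genes (-0.37) and of the proliferation markers (-0.59) lie left of it, whereas those of the other lists lie within it.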

How the data were processed

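The authors mapped the reads of the 6 libraries to hg38 with Rsubread, counted them over RefSeq gene models with default settings, which do not use the strand, and deposited normalized signal, in 1 column per library and not as logarithms. Values above 0 were whole reads (within 0.01) times a step of the library, which gave back 45546981 to 85729785 reads and made 1 read worth 0.0121 to 0.0202. The steps are those of edgeR's TMM scaling, so depth and composition had been adjusted for.

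After log2(value + 1), which makes the changes of low genes smaller, limma 3.58.1 (R 4.3.3, eBayes with a trend) tested genes with a mean of 1 or more, with p adjusted by Benjamini and Hochberg. It was first tested on simulated data. Exon overlap and transcript lengths came from GENCODE (hg38), promoters from RefSeq (GRCh38.p14).

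Values of every library are given for genes called without overlap between the groups at an absolute log2 fold change of at least 0.5, and for the largest change in each of 9 roles. Those of *BRCA2*, *FANCD2*, *ATM* and *FANCF* were added after their values were seen. The members, roles and lists were chosen with earlier results of these data known. As alternatives, the pseudocount was set to 0.1, the filter was dropped or raised to 10, values were rescaled by median of ratios or quantiles, a replicate block was added, the trend was left out, each library was left out in turn, and edgeR 4.0.16 (quasi-likelihood) was run on recovered reads. Some genes of the lists are not reported by name here. Other assays of the study were not analysed here.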

Additional observations from a re-analysis of the deposited data

How the results depend on the processing

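Of the 41 genes, 22 fell in the test as reported, and 20 to 23 did in the 8 alternatives on all 6 libraries, with 22 under edgeR and 20 both under quantile normalization and without a filter. Leaving out 1 library gave 15 to 25 that fell and 1 to 5 that rose. The 5 came without scrambled siRNA replicate 3, and the 1 without *DUSP6* siRNA replicate 1 or 3, where *ATM* was lost. Calls moved over all genes tested as well, with 2309 to 3578 that fell and 1535 to 3213 that rose in these fits. Both of the highest counts came without scrambled siRNA replicate 3. Quantile normalization added *MUS81* to the genes that rose and gave 2887 genes lower and 2958 higher over the whole table, against 3179 and 2540. With a replicate block 23 of the 41 genes fell, *FANCD2* being added. The deviations of libraries with the same number had correlations of 0.0050, 0.0868 and -0.0764, which gave no sign that the numbers pair the samples. Not every library correlated best with its own number. With so few libraries in a group, these correlations cannot exclude a pairing. The only fold changes to turn were those of 4 genes near 0. *RAD51D* was at 0.0123 and *RMI1* at 0.0104 under edgeR, *RBBP8* at -0.0019 under median of ratios and *TOP3A* at 0.0105 under quantile normalization. When 1 library was left out, *RAD51D* ran from -0.14 to 0.14, *RBBP8* from -0.061 to 0.074, *RMI1* from -0.078 to 0.075 and *TOP3A* from -0.15 to 0.016. The cause of these shifts was not tested.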
